A study of Homo sapiens with 9 samples.

Results

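Genes of the Polycomb repressive complexes were examined in HEK293 cells in which SmcHD1, a chromatin protein of the structural maintenance of chromosomes family, had been knocked down. The genes were EZH1, EZH2, EED, SUZ12, JARID2, RNF2, RING1, BMI1, CBX2 and CBX7, chosen by name, and every array probe whose RefSeq accession maps to any of them was taken. Of these 10 genes, 9 had a probe by that match, with 13 probes among the 42405 on the array. No probe was matched to EED, so it was not analysed here. The gap lies in this match by accession and does not show that the array lacks an EED probe. All 13 probes were well above background on all 9 arrays and were tested.

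Polycomb proteins keep developmental genes silent and work in 2 complexes. PRC2 trimethylates histone H3 at a lysine that marks repressed chromatin, through EZH2 or EZH1 with EED and SUZ12, and JARID2 helps to bring it to its targets. PRC1 ubiquitinates histone H2A through RNF2 or RING1, partnered by a PCGF protein such as BMI1, and chromobox proteins such as CBX2 and CBX7 bind the mark that PRC2 leaves.

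HEK293 is an established human embryonic kidney line. Its cells were infected with retrovirus carrying a short hairpin RNA and selected with puromycin, which gave stable populations with a hairpin against SmcHD1, either shRNA 3 (KD3) or shRNA 4 (KD4), or with the control hairpin NC5 (CTL). No other treatment was given, and the selection was common to the 3 groups. Each group was measured on 3 one-color Agilent arrays, which the methods call biological triplicates. Whether these came from separate infections is not given in the sources used here, so the p-values measure the spread between these arrays only. The inserts are shown because they are what differs between the groups, with the loop between both arms of the hairpin in capitals.
shRNA 3: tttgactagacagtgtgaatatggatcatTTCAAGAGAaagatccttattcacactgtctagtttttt
shRNA 4: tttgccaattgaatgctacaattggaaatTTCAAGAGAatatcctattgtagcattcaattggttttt
NC5: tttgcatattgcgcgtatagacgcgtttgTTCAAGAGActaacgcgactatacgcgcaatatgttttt
Over the 25 bases of the first arm that follow the shared start, shRNA 3 and shRNA 4 had no longer run in common than 5 bases.

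Over the arrays the median processed signal ran from 119.6 to 181.4, from 75.1% to 79.8% of probes were well above background, no spot was saturated, and the lowest correlation between arrays of a group was 0.995. The number of arrays limits the precision. Levels below are log2 intensities after quantile normalization, a difference of groups is a difference of log2 levels, and a gene was called at a limma adjusted p under 0.05 on its brightest probe. The targeted gene SMCHD1 had levels of 10.40, 10.16 and 10.32 in KD3, 9.63, 9.80 and 9.77 in KD4, and 11.20, 11.37 and 11.22 in CTL. It was lower than CTL by a log2 difference of -0.97 ± 0.09 (SE, limma adjusted p = 0.000214) in KD3 and of -1.53 ± 0.09 (limma adjusted p = 1.81e-05) in KD4. In RNA of a whole population, fewer cells with a transcript and less of it per cell cannot be told apart. All 6 HEK293 markers examined (KRT8, KRT18, VIM, NEFM, PAX2, CDH2) were above background. Their summed linear intensity was 133959.4 to 148803.9 in KD3, 155025.2 to 159316.7 in KD4 and 143328.4 to 156531.0 in CTL, although NEFM and PAX2 were called lower in both knock-downs and KRT18 higher in KD4. Of 8 markers of other cell types, PECAM1 of endothelium and HBB of red cells were not above background on any array, ALB of hepatocytes was above it on 1 array, and 5 were tested. The sum of those 5 was lower in the knock-downs, at 1479.4 to 1567.7 in KD3 and 1431.8 to 1488.2 in KD4 against 1770.2 to 1820.3 in CTL. Its genes did not move together, since MBP was called lower in both knock-downs, MYOD1 lower in KD3, and CD68 higher in KD3 and lower in KD4 than in KD3, and their part in the results below was not tested.

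Of the 9 Polycomb genes BMI1 rose most, 1.74-fold in KD3 and 1.73-fold in KD4, and RNF2 rose 1.44-fold and 1.38-fold. SUZ12 rose 1.23-fold and 1.18-fold, and JARID2 1.18-fold and 1.27-fold. RING1 was called higher in KD4 and CBX2 lower in KD3, while EZH1, EZH2 and CBX7 passed the test in neither. Of the 9 genes, 4 were called higher and 1 lower in KD3, where 9.47% of all 26862 genes or unnamed accessions tested were called higher, 10.5% lower and 19.9% in either direction. In KD4, 5 were called higher and 0 lower, where 13.4% of all were called higher, 14.7% lower and 28.1% in either direction. At an unadjusted p under 0.05, limma and the methods' t-test each gave 5 in KD4, all of them higher. Higher in both were 4 of 9, against 6.96% of all. The knock-downs share the CTL arrays, so that their differences are not independent of each other. All 6 knock-down arrays lay above all 3 CTL arrays for 5 genes, SUZ12, JARID2, RNF2, RING1 and BMI1, and below them for none, where 12.8% of all genes lay wholly above and 13.6% wholly below. The median difference over the 9 genes was 0.17 in KD3 and 0.24 in KD4, beside 0.01 and 0.04 over all genes tested. No gene reached a fold of 1.8, which 3.35% of all did with an adjusted p under 0.05 in KD3 and 4.59% in KD4.

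**Figure D1:**
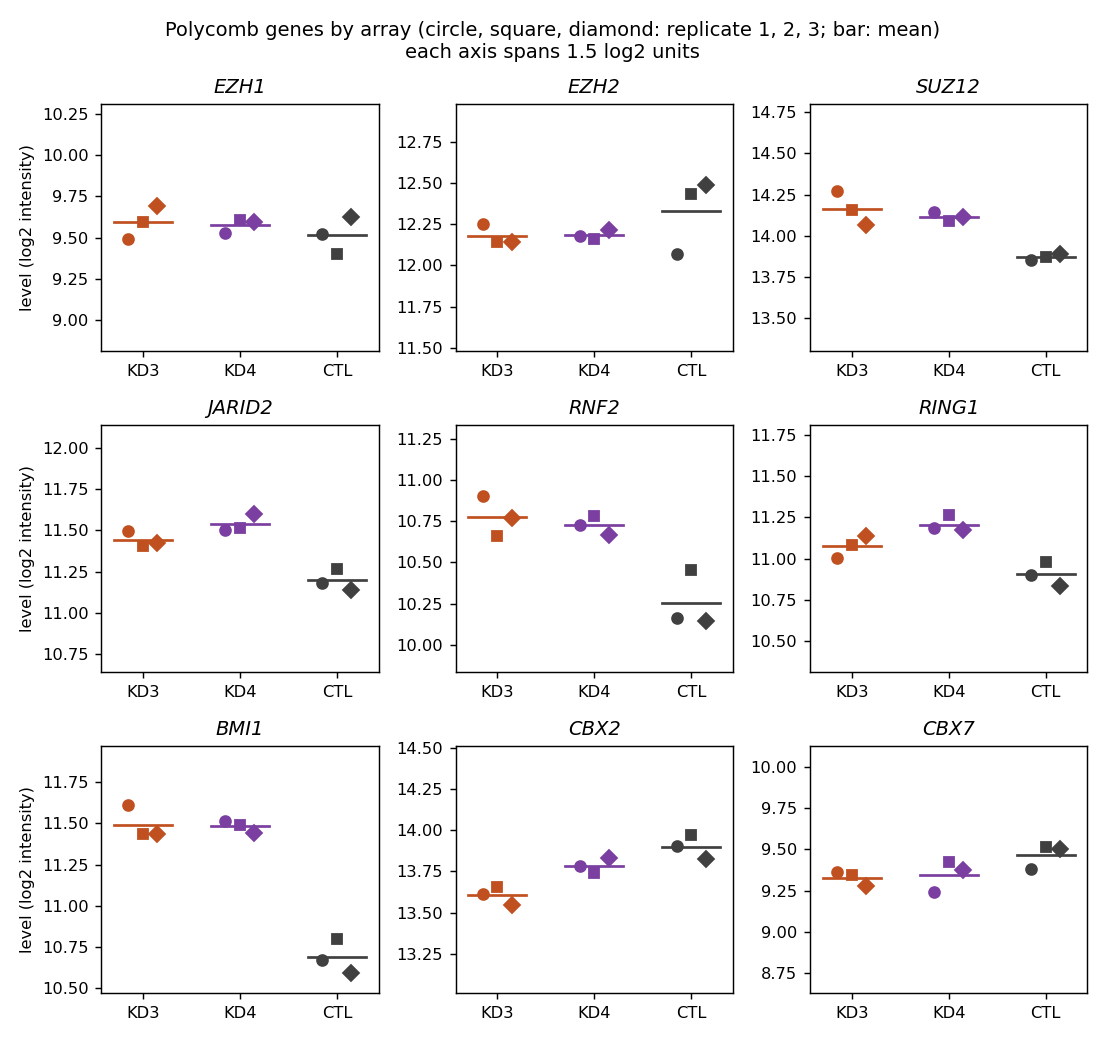
Level of each Polycomb gene on its brightest probe in log2 intensity (vertical axis, 1.5 log2 units in every panel) in KD3, KD4 and CTL, with a symbol for each of 3 arrays and a bar for the group mean. BMI1 shows the widest gap, with 6 knock-down arrays from 11.43 to 11.61 and CTL arrays from 10.60 to 10.80, while EZH2 shows its widest spread within CTL.

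The catalytic subunits of PRC2 did not pass the test in either knock-down. EZH2, the main methyltransferase of dividing cells, had levels of 12.25, 12.14 and 12.14 in KD3, 12.18, 12.16 and 12.21 in KD4, and 12.07, 12.43 and 12.49 in CTL. The CTL arrays enclosed all others, since CTL replicate 1 was the lowest of the 9 arrays and the other two CTL arrays were the highest. The difference was -0.15 in KD3 (95% interval -0.40 to 0.10, limma adjusted p = 0.381) and -0.15 in KD4 (-0.39 to 0.10, limma adjusted p = 0.352). Without CTL replicate 1 it was -0.28 in each and was called, with limma adjusted p = 0.0337 in KD3 and 0.0271 in KD4. The arrays lay on 2 slides, each with arrays of all groups, and the direction turned between them. The difference was -0.32 in KD3 and -0.27 in KD4 on slide 1, and 0.13 and 0.11 on slide 2, where CTL replicate 1 was the only control. EZH1, the methyltransferase that prevails in resting cells, ranged from 9.40 to 9.69 over the 9 arrays with overlapping groups. Its difference was 0.08 in KD3 (-0.11 to 0.26, limma adjusted p = 0.585) and 0.06 in KD4 (-0.13 to 0.25, limma adjusted p = 0.630).

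SUZ12, the scaffold subunit that PRC2 needs for activity, was higher in both knock-downs. Its levels were 14.27, 14.15 and 14.07 in KD3, 14.14, 14.09 and 14.11 in KD4, and 13.86, 13.87 and 13.89 in CTL. The CTL arrays were closely spaced (SD 0.02) and lay below all knock-down arrays. The difference was 0.29 ± 0.07 (SE, limma adjusted p = 0.0200) in KD3 and 0.24 ± 0.07 (limma adjusted p = 0.0312) in KD4. A pseudogene, SUZ12P1, resembles SUZ12 in sequence and was looked at after the values of SUZ12 were known. Its brightest probe differed by 0.04 (limma adjusted p = 0.764) in KD3 and 0.12 (limma adjusted p = 0.318) in KD4. That probe had mean levels of 18.15 in KD3, 18.23 in KD4 and 18.11 in CTL, far above SUZ12, and its bearing on the SUZ12 values was not tested. The call of SUZ12 was lost in 4 of 19 alternatives for KD3 and in 8 of 19 for KD4, where the highest adjusted p was 0.0973 in limma.

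JARID2, the accessory subunit, was called higher in both. Its levels were 11.50, 11.40 and 11.42 in KD3, 11.50, 11.51 and 11.60 in KD4, and 11.18, 11.27 and 11.14 in CTL. The groups did not overlap with CTL, and KD4 lay at or above KD3. The difference was 0.24 ± 0.07 (SE, limma adjusted p = 0.0353) in KD3 and 0.34 ± 0.07 (limma adjusted p = 0.00658) in KD4. The KD3 call was lost in 12 of 19 alternatives, among them the slide as a block (limma adjusted p = 0.0634), while the KD4 call was lost in none.

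Among the PRC1 ligases, RNF2 (RING1B), the more widely used E3 ligase subunit, was higher in both knock-downs. On its brightest probe its levels were 10.90, 10.66 and 10.77 in KD3, 10.73, 10.78 and 10.66 in KD4, and 10.16, 10.45 and 10.14 in CTL. CTL replicate 2 came nearest to the knock-down arrays, and no knock-down array overlapped with CTL. The difference was 0.52 ± 0.10 (SE, limma adjusted p = 0.00866), a fold of 1.44, in KD3 and 0.47 ± 0.10 (limma adjusted p = 0.0104), a fold of 1.38, in KD4. The other probe of RNF2 gave smaller differences, 0.21 in KD3, which missed the threshold (limma adjusted p = 0.0518), and 0.32 in KD4 (limma adjusted p = 0.00689). The methods' t-test with adjustment was the only one of 19 alternatives in which the brightest probe lost its call, with adjusted p = 0.131 by that t-test fitted over all genes in each knock-down.

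RING1 (RING1A), the paralogous ligase, had levels of 11.01, 11.08 and 11.14 in KD3, 11.19, 11.27 and 11.17 in KD4, and 10.90, 10.98 and 10.83 in CTL. All knock-down arrays lay above CTL, with KD3 replicate 1 nearest to it. The difference was 0.17 (95% interval 0.01 to 0.33, limma adjusted p = 0.133) in KD3 and 0.30 (0.14 to 0.46, limma adjusted p = 0.0142) in KD4. It passed in KD4 and not in KD3, and the difference between the knock-downs themselves, 0.13 (-0.03 to 0.29), did not pass (limma adjusted p = 0.353).

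BMI1 (PCGF4), the PCGF partner in canonical PRC1 and a repressor of the CDKN2A locus, showed the widest difference of the 9 genes. Its levels were 11.61, 11.43 and 11.43 in KD3, 11.52, 11.49 and 11.44 in KD4, and 10.67, 10.80 and 10.60 in CTL. The lowest knock-down array stood well above the highest CTL array. The difference was 0.80 ± 0.08 (SE, limma adjusted p = 0.000344), a fold of 1.74, in KD3 and 0.79 ± 0.08 (limma adjusted p = 0.000285), a fold of 1.73, in KD4. The other BMI1 probe had levels of 10.50, 10.41 and 10.32 in KD3, 10.49, 10.43 and 10.35 in KD4, and 9.51, 9.92 and 9.82 in CTL, again without overlap. Its difference was 0.66 ± 0.11 (SE, limma adjusted p = 0.00398) in KD3 and 0.67 ± 0.11 (limma adjusted p = 0.00267) in KD4. Within slide 1 the brightest probe differed by 0.73 in KD3 and 0.77 in KD4, and within slide 2 by 0.85 and 0.84. The call of BMI1 was kept in 19 of 19 alternatives in each knock-down, with differences of 0.73 to 0.86 in KD3 and 0.75 to 0.85 in KD4. The fold of at least 1.8 is not among these 19, and BMI1 did not reach it. COMMD3, the gene just upstream, whose read-through transcript shares BMI1 sequence, was looked at after the values of BMI1 were known and differed by 0.00 (limma adjusted p = 0.985) in KD3 and -0.09 (limma adjusted p = 0.394) in KD4.

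**Figure D2:**
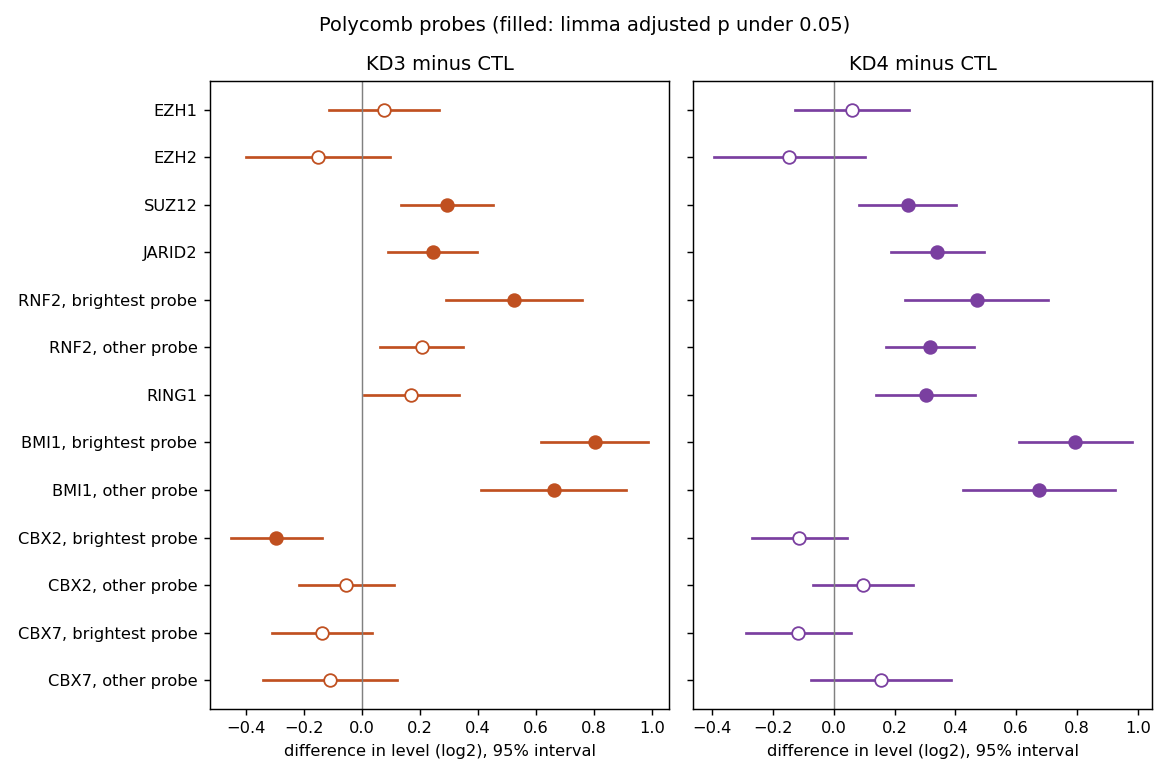
Difference in log2 level from CTL (horizontal axes) for all 13 Polycomb probes in KD3 (left) and KD4 (right), with 95% intervals from limma and filled points at an adjusted p under 0.05. Both BMI1 probes lie between 0.66 and 0.80, and the other probes of CBX2 and CBX7 lie nearer to 0 or on the other side of it in KD4.

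Neither chromobox gene, readers of the PRC2 mark, was called higher. CBX2 had levels of 13.61, 13.65 and 13.55 in KD3, 13.78, 13.74 and 13.83 in KD4, and 13.90, 13.97 and 13.82 in CTL on its brightest probe. KD3 lay below CTL without overlap, and KD4 replicate 3 overlapped with the lowest CTL array. The difference was -0.29 ± 0.07 (SE, limma adjusted p = 0.0182) in KD3 and -0.11 ± 0.07 (limma adjusted p = 0.254) in KD4. The other CBX2 probe, designed to another RefSeq transcript of the gene, was not called, with differences of -0.05 (limma adjusted p = 0.661) and 0.10 (limma adjusted p = 0.356). Scaling to the 75th percentile also ended the KD3 call, as did 4 of the other alternatives, with adjusted p up to 0.0930 among the 19. CBX7, the chromobox protein of stem and progenitor cells, ranged from 9.24 to 9.52 with overlapping groups. Its difference was -0.14 (95% interval -0.31 to 0.04, limma adjusted p = 0.254) in KD3 and -0.12 (-0.29 to 0.06, limma adjusted p = 0.285) in KD4. The other CBX7 probe pointed the opposite way in KD4, at 0.16 (limma adjusted p = 0.284), and was not called.

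Between the knock-downs, 0 of 9 genes passed in limma, where 2.49% of all genes tested did. At an unadjusted p under 0.05 there was 1, CBX2, in limma and by the methods' t-test alike, and with adjustment that t-test called 0. CBX2 was higher in KD4 than in KD3 by 0.18 (95% interval 0.02 to 0.34, limma adjusted p = 0.198). For BMI1 the difference was -0.01 (-0.19 to 0.18), for RNF2 -0.05 (-0.29 to 0.18), for SUZ12 -0.05 (-0.21 to 0.11) and for JARID2 0.10 (-0.06 to 0.25). SMCHD1 itself was lower in KD4 than in KD3, by a log2 difference of -0.56 (limma adjusted p = 0.0195).

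**Figure D3:**
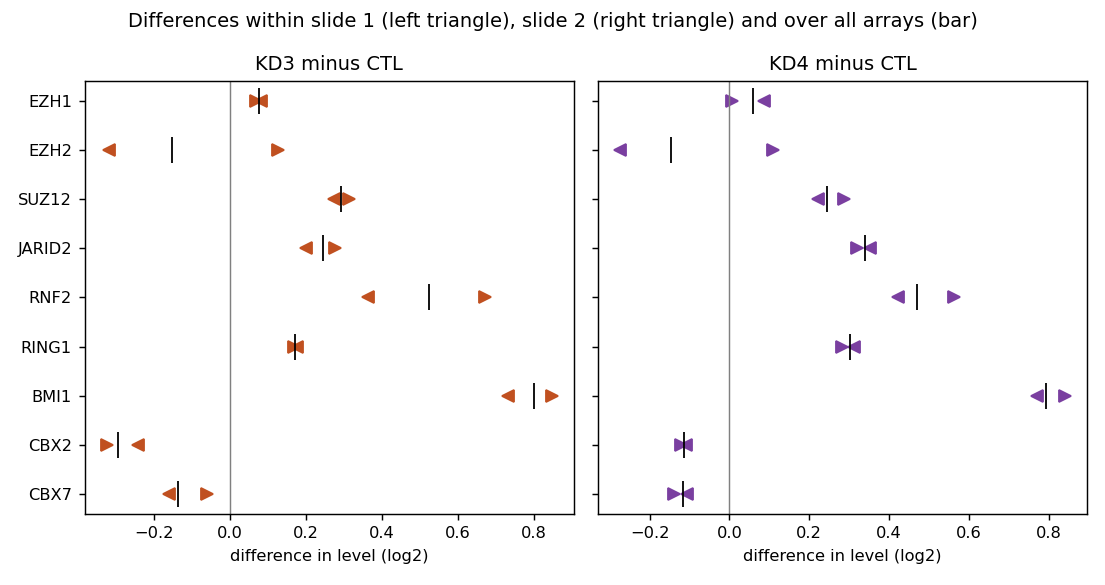
Difference in log2 level from CTL (horizontal axes) of each Polycomb gene in KD3 (left) and KD4 (right) within slide 1, within slide 2 and over all arrays, with 1 or 2 arrays of a group on a slide and no error bars. BMI1 lies between 0.73 and 0.85 on both slides, and EZH2 lies below 0 on slide 1 and above 0 on slide 2.

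The promoters of the 4 genes called higher in both knock-downs are shown for that shared call, and a common regulation of these genes was not tested. The RefSeq promoter table of build GRCh38.p14 holds 9 of the 10 genes, with 12 start sites, and none for CBX2. The 250 bases before each start were searched on both strands for TTTCCCGC or TTTGGCGC, the letters of E2F sites. They were also searched for the E-box CACGTG. Last came the box with the letters CCAAT. The matches, none of which overlapped, are in capitals. The window at the most upstream start of each gene is printed 5′ to 3′ in the direction of the gene.
BMI1 (chr10:22320849-22321098, plus strand): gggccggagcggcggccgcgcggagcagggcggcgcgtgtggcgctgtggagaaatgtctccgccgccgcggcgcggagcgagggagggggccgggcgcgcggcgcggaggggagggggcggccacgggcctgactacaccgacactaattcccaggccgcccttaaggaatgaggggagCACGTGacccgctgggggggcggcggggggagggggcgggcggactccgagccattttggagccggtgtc
RNF2 (chr1:185045308-185045557, plus strand): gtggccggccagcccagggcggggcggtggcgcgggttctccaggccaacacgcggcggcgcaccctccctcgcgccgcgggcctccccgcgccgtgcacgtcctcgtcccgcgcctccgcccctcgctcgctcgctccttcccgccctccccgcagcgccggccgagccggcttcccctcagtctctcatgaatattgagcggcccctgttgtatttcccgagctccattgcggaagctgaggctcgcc
SUZ12 (chr17:31936757-31937006, plus strand): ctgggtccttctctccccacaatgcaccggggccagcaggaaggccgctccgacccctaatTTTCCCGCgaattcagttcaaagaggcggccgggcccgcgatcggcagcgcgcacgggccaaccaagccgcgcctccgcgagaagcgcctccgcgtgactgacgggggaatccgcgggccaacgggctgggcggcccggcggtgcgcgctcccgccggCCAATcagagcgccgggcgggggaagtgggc
JARID2 (chr6:15245819-15246068, plus strand): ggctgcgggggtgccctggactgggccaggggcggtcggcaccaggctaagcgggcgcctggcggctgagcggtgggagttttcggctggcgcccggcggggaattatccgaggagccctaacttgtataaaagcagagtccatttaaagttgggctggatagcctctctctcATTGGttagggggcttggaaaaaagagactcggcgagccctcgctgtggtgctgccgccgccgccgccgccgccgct
BMI1 held an E-box that begins 70 bases before its start, as do 6.34% of all 35116 promoter windows of this length. SUZ12 held an E2F site beginning 189 bases before its start, where 1.93% of all windows hold such letters, and a CCAAT box beginning 31 bases before it. JARID2 held a CCAAT box beginning 77 bases before its start, and 32.0% of all windows hold that box. RNF2 held no match, nor did the other start of BMI1 or of JARID2. Among the 12 windows the counts were 1 with an E2F site, 1 with an E-box and 5 with a CCAAT box, among them EZH2, which did not pass the test.

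Of 9 other PRC2 subunits listed, 8 were tested, beside 19.9% of all genes called in KD3 and 28.1% in KD4. On their brightest probes 0 were called in KD3 in limma, with 1 at an unadjusted p under 0.05. The adjusted t-test of the methods called 0 there. In KD4 the 1 called was PHF1, an accessory subunit that binds methylated histone H3, which was higher, with levels of 8.62, 8.47 and 8.82 against 7.99 to 8.25 in CTL. It differed by 0.50 (limma adjusted p = 0.0112) in KD4 and 0.23 (limma adjusted p = 0.188) in KD3, and the difference between the knock-downs was not called (limma adjusted p = 0.237). The histone chaperones RBBP4 and RBBP7, core PRC2 partners, differed by -0.09 and 0.12 in KD3 and by -0.06 and -0.03 in KD4, none of them called. PHF19 was called lower in KD3 on its other probe, at -0.45 (limma adjusted p = 0.00802), and was at -0.04 in KD4. Its brightest probe, at -0.01 and 0.10, was called in neither.

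Of the other subunits of PRC1, 25 were tested. On their brightest probes 3 were called higher and 2 lower in KD3, and 6 higher and 5 lower in KD4. The remaining 20 in KD3 and 14 in KD4 did not pass, and over all genes 19.9% were called in KD3 and 28.1% in KD4, so the KD3 share is near that of all genes. SCML1, a Polycomb-related protein, had the widest difference in this list, with 11.96, 11.74 and 11.79 in KD3, 11.58, 11.58 and 11.50 in KD4, and 10.30, 10.47 and 10.47 in CTL. It rose by 1.41 (limma adjusted p = 2.28e-05) in KD3 and 1.14 (limma adjusted p = 5.34e-05) in KD4, without overlap. Of the polyhomeotic genes, which join PRC1 complexes to each other, PHC3 was higher by 0.46 in KD3 and 0.38 in KD4, while PHC2 was lower, at -0.42 and -0.49, all called. SCMH1, a relative of the Drosophila gene Sex comb on midleg, was called lower in both, at -0.40 and -0.31. AUTS2, called lower in KD4 on its brightest probe (-0.31), was called higher there on another of its 3 probes (0.62, limma adjusted p = 0.0155). FBRSL1 was called lower in both on its other probe, at -0.56 and -0.47, and in neither on its brightest. In KD4 the other probes of MGA, at 0.32, and YAF2, at -0.30, were called, unlike their brightest.

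Among the paralogs of the members, the chromobox gene CBX8 was called higher in KD4. It differed by 0.64 (limma adjusted p = 0.00621) in KD4 and 0.39 (limma adjusted p = 0.0604) in KD3. The difference between the knock-downs was not called (limma adjusted p = 0.316). CBX6 was not called, at 0.11 and 0.06. Of the PCGF paralogs of BMI1, PCGF5 was called lower in KD4, at -0.38 (limma adjusted p = 0.00689), and was at -0.19 in KD3. PCGF2 (MEL18), at 0.10 in KD3 and 0.05 in KD4, and PCGF3, at -0.35 (limma adjusted p = 0.0773) and 0.01, were not called in either.

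**Figure D4:**
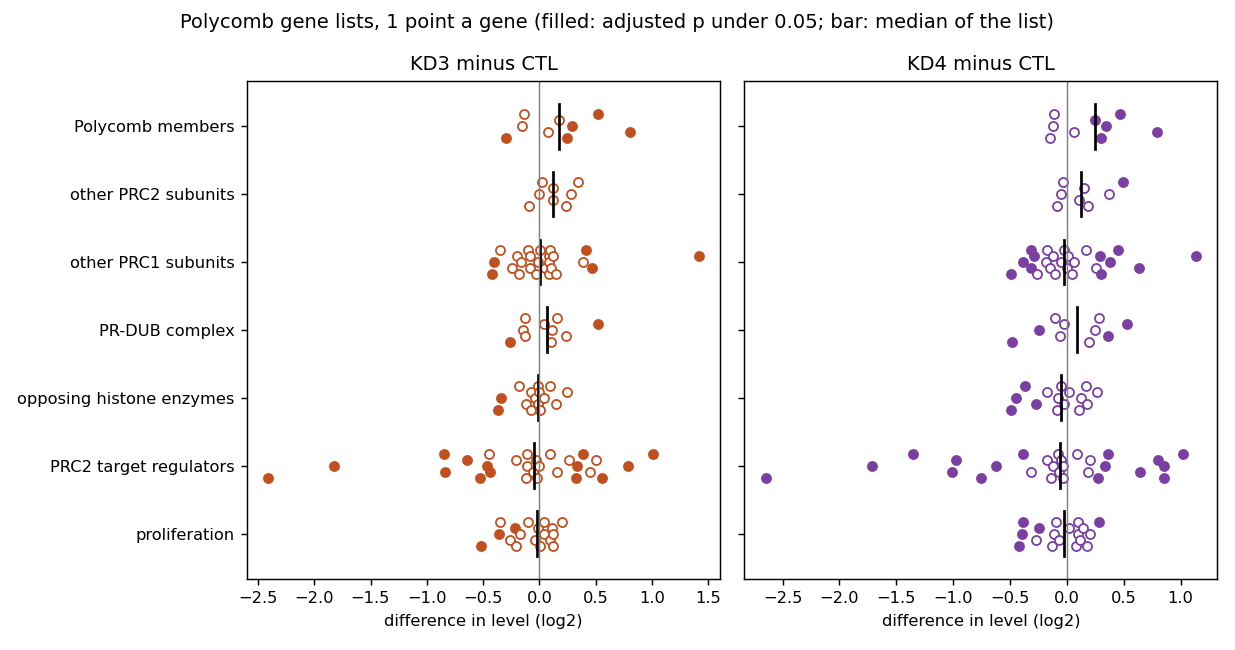
Difference in log2 level from CTL (horizontal axes) of every tested gene of the Polycomb members and of 6 further lists in KD3 (left) and KD4 (right), filled at a limma adjusted p under 0.05, with a bar at the median of each list. The medians of the members are 0.17 (KD3) and 0.24 (KD4), the 28 PRC2 target regulators spread from -2.41 to 1.01 in KD3, and SCML1 is the rightmost point of the other PRC1 subunits.

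The PR-DUB complex removes the ubiquitin that PRC1 places. Of its 10 genes, 1 was called higher and 1 lower in KD3, and 2 higher and 2 lower in KD4, beside 19.9% and 28.1% of all genes called in either direction. The scaffold gene ASXL2 was higher in both (0.52 and 0.36) and the forkhead factor FOXK1 lower in both (-0.27 and -0.25). ASXL1 was called higher in KD4, at 0.53 against 0.11 in KD3, and the difference between the knock-downs was called (limma adjusted p = 0.0315). ASXL3 was called lower in KD4, at -0.49 against -0.15, and that difference was not (limma adjusted p = 0.0601). Another of the 3 probes of FOXK2 was called higher in KD4, at 0.28 (limma adjusted p = 0.0342), while its brightest was not called.

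Tested on their brightest probes were 15 enzymes or cofactors of histone marks that oppose Polycomb. Of these, 0 were called higher in either knock-down, 2 lower in KD3 and 4 lower in KD4. Over all genes 9.47% and 13.4% were called higher and 10.5% and 14.7% lower. At an unadjusted p under 0.05 limma gave 4 in KD3 and 5 in KD4 in either direction, and the adjusted t-test of the methods 1 and 2. WDR5, a core subunit of the MLL complexes that methylate histone H3 at active promoters, differed by -0.34 (limma adjusted p = 0.00802) in KD3 and -0.37 (limma adjusted p = 0.00431) in KD4. NSD2, a methyltransferase of gene bodies, was called lower on its brightest probe (-0.37 and -0.49), but another of its 5 probes was called higher (0.30 and 0.42), so its direction depends on the probe. The other probes of KMT2C, at 0.44 (limma adjusted p = 0.0137), and RBBP5, at 0.42 (limma adjusted p = 0.0192), were called higher in KD4. Their brightest probes were not called. ASH2L, another MLL subunit, and the methyltransferase KMT2A were called lower in KD4, at -0.45 and -0.27, and were at -0.18 and -0.12 in KD3. The difference between the knock-downs was not called for ASH2L (limma adjusted p = 0.0844) or KMT2A (limma adjusted p = 0.314).

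Of 35 listed developmental regulators that PRC2 marks in many cell types, 28 were tested, with 6 called higher and 8 lower in KD3 and 8 higher and 8 lower in KD4. The other 14 in KD3 and 12 in KD4 did not pass, beside 19.9% and 28.1% of all genes called, and the median was -0.05 in KD3 and -0.06 in KD4. The kidney regulator PAX2 fell by 2.41 (limma adjusted p = 2.33e-06) in KD3 and by 2.65 (limma adjusted p = 5.57e-07) in KD4 on its brightest probe. Its other probe was at -0.01 and 0.06. That probe was much dimmer, with mean levels of 5.95 in KD3, 6.02 in KD4 and 5.96 in CTL, where the brightest had 10.96 in CTL. The neural zinc finger gene MYT1 had levels of 5.67, 5.50 and 5.39 in KD3, 5.89, 5.90 and 6.18 in KD4, and 7.34, 7.22 and 7.46 in CTL, a difference of -1.83 and -1.35, both called. HAND2, of heart and limb, was lower by a difference of -0.85 and -0.97, and TBXT, of mesoderm, by -0.84 and -1.01, all called. OLIG2, of oligodendrocytes, was called higher in KD4, at 1.02 (limma adjusted p = 0.00290), and was at 0.50 (limma adjusted p = 0.0706) in KD3. CDKN2A, whose locus BMI1 is known to repress, was not called on either of its probes. Its brightest probe was at 0.10 (limma adjusted p = 0.444) and 0.19 (limma adjusted p = 0.107), and its other probe, designed to another transcript, at 0.04 (limma adjusted p = 0.810) and 0.25 (limma adjusted p = 0.0919).

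Genes of proliferation, a process for which EZH2 is a known marker, were examined for comparison. Of 18 tested, 0 were called higher and 3 lower in KD3 (7 at an unadjusted p under 0.05 in limma, 0 by the adjusted t-test of the methods), and 1 higher and 4 lower in KD4. Over all genes 19.9% were called in KD3 and 28.1% in KD4. E2F1, a transcription factor of S phase, differed by -0.52 and -0.39, and PCNA and MCM3, which act at the replication fork, by -0.36 and -0.22 in KD3 and by -0.42 and -0.24 in KD4, all called. MCM6 was called lower (-0.39) and the cyclin gene CCNA2 higher (0.28) in KD4, beside -0.21 and 0.20 in KD3, and the difference between the knock-downs was not called for MCM6 (limma adjusted p = 0.319) or CCNA2 (limma adjusted p = 0.573). The median difference over the 18 genes was -0.03 in each knock-down, beside 0.01 in KD3 and 0.04 in KD4 over all genes. The summed linear intensity of the list, in which bright genes weigh most, was 320535.6 to 329083.6 in KD3, 313546.2 to 331434.3 in KD4 and 347327.8 to 362401.4 in CTL. The part of this list in the Polycomb values was not tested.

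For the 3 members with the widest range of group means, the genes with the most similar pattern were sought by the root mean square difference of centred log2 levels over the 9 arrays. Nearest to BMI1 were RANBP9 at 0.0425, CTSC at 0.0441 and POLB at 0.0447. Nearest to RNF2 were POLR3G at 0.0490, SCARNA5 at 0.0499 and then HERC4. JARID2 had CDC26 at 0.0247, MCFD2 at 0.0329 and ELOC at 0.0349.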

How the data were processed

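Total RNA of the 9 HEK293 samples was labelled with Cy3 and hybridised to 1-color arrays. For every array the authors deposited spot intensity values as read by Agilent Feature Extraction 10.10, whose green processed signal is background-subtracted, and they deposited a table of log2 values, that signal normalized in GeneSpring. The methods write quintile normalization, which was read as quantile. Control spots and spots marked as outliers were left out (260 to 634 of 58717), quantile normalization of log2 signals was done in limma 3.58.1 (R 4.3.3), replicate spots were averaged by probe, and 21 probes without a value were dropped. Quantile normalization sets the same distribution on every array, so a shift shared by most genes is not seen. Genes were named through the RefSeq accession (25422 of 42405 probes) with the table of GRCh38.p14. Since the probes were designed on an earlier build, their coordinates are not given.

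A probe entered the fit if all arrays of 1 or more groups had it well above background, which left 32276 for 1 limma fit with a mean for each of 3 groups, and p-values were adjusted by Benjamini-Hochberg over all of them. The fit was tested on simulated data. A gene was called on its brightest probe. Named were all members, SMCHD1, and from each list up to 4 genes called in both knock-downs in the same direction and up to 2 called in 1, by size, with RBBP4, RBBP7, PCGF2, PCGF3, PCGF5, CBX6, CBX8 and CDKN2A in any case. A further gene that the rule names is not reported here. The members and lists were chosen with earlier results of these data known. Counts of the lists under alternatives were added after seeing the data. Alternatives were 75th percentile scaling, normexp with an offset of 50, the authors' log2 values, no or a stricter filter, the methods' unequal-variance test with and without adjustment, 2 groups alone, replicate or slide as a block, a fold of at least 1.8, any probe of a gene, and leaving out each array. The fold and the any-probe setting were applied to counts only, which leaves 19 alternatives for a single gene.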

Additional observations from a re-analysis of the deposited data

Results flagged for a closer look

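Among the targeted gene, the Polycomb genes and the lists other than cell markers, 4 genes differed by the test between the knock-downs, KD4 minus KD3. None of the 9 Polycomb genes was among them. Of the 86 genes tested in the lists of other Polycomb genes, opposing enzymes and targets, 3 were called, beside 2.49% of all genes. Of the cell markers, CD68 was called lower in KD4 than in KD3. SMCHD1 was lower in KD4 by a log2 difference of -0.56 (limma adjusted p = 0.0195). ASXL1, a PR-DUB scaffold, was higher in KD4 by 0.42 (limma adjusted p = 0.0315), with levels of 11.93, 11.94 and 12.04 against 11.57, 11.47 and 11.61 in KD3. TBX15, a T-box regulator, was lower in KD4 by a difference of -1.26 (limma adjusted p = 0.0101), with a KD4 level above background on 2 of 3 arrays. FOXA2, an endoderm regulator chosen after its values were seen, was higher in KD4 by 0.81 (limma adjusted p = 0.00258). It was called lower than CTL in KD3 (-0.53) and higher in KD4 (0.28), and was the only listed PRC2 target regulator called in opposite directions.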

How the results depend on the processing

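No difference of a Polycomb gene or of SMCHD1 reversed under 19 alternatives, and SMCHD1 kept its call in all. The filters, the t-tests, 2 groups alone and the replicate block leave a difference as it is, so they could not reverse it. Leaving out an array of the other knock-down could not either. Within slide 2 alone EZH2 did turn, to 0.13 in KD3 and 0.11 in KD4. Against 5 called members in KD3, the adjusted t-test of the methods left 1 (BMI1), 2 groups alone left 2 (RNF2 and BMI1), the fold of 1.8 left 0, and leaving out an array left 3 to 5, with 3 without any KD3 array. Against 5 in KD4 these gave 3 by the adjusted t-test, 0 at the fold of 1.8, and 3 to 5, with 3 without KD4 replicate 2. The calls over all genes fell as well, which bears on these counts and on those of the lists below. Of all genes, the adjusted t-test called 1.67% in KD3 and 6.12% in KD4, and 2 groups alone called 14.4% in KD3. Leaving out an array called 13.9% to 18.0% of all in KD3 and 19.9% to 28.4% in KD4. Between the knock-downs the unadjusted t-test gave 1 against 0. For the lists of other Polycomb genes, opposing enzymes and targets, counts under alternatives were added after seeing the data. Against 23 in KD3 the adjusted t-test gave 6, the fold 5 and leaving out an array 17 to 24. Against 36 in KD4 they gave 13, 9 and 24 to 36. Counting a call on any tested probe of a gene gave 25 in KD3 and 44 in KD4. Against 3 between the knock-downs the adjusted t-test gave 0, the unadjusted 25, the fold 1 and leaving out an array 2 to 5, with 5 without CTL replicate 3.

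With the replicate number as a block, 4 members were called in KD3 (JARID2 lost) and 4 in KD4 (SUZ12 lost). The list counts with the block were 21, 31 and 2, and SMCHD1 stayed at -0.97 and -1.53. Arrays with the same number had weak correlations of deviations, from -0.08 to 0.14. With 3 arrays in a group and the numbers partly tied to the slides, these cannot decide whether the numbers pair the samples. No scaling moved the median of all genes by over 0.1, and the spread between 3 arrays limits what could be called.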
